A study of Mus musculus with 9 samples.

Results

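The fatty acid binding protein genes Fabp1, Fabp2, Fabp4, Fabp5 and Fabp7 were followed through RNA sequencing of whole mouse liver, with the question of whether the other members shift where Fabp4 does. They were found by their gene names, 5 of the 54532 genes in the deposited count table, and all 5 had enough reads to be tested. Liver RNA came from 9 male wild-type C57BL/6 mice on normal chow, in 3 groups of 3 separate animals. Mice of the group called old Fabp4 shRNA were 20 months of age. At 14 months they had received adeno-associated virus 9, which delivers genes to cells, into the tail vein and into subcutaneous fat, with a short hairpin RNA that targets Fabp4 as its cargo. Old control mice had the same age and injections, with a virus carrying the hairpin RNA named Neg. Young mice were 8 weeks old, and the labels describe no injection for them, so in both comparisons with young liver age and virus cannot be told apart. The promoter behind the hairpin, and so the cell types that make it, is not given in the sources used here.

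Fatty acid binding proteins are small cytosolic carriers that hold a long-chain fatty acid inside a barrel of folded strands and move it between membranes, enzymes and the nucleus. Each member is named for the tissue where it was first found. Fabp1 is the liver form and one of the abundant proteins of hepatocytes, Fabp2 is the form of the intestinal lining, Fabp4 is the form of fat cells and is also made by macrophages and capillary endothelium, Fabp5 is the epidermal form and is also made by macrophages and endothelium, and Fabp7 is the brain form, best known from glia. In hepatocytes Fabp1 carries ligands to the nuclear receptor PPARalpha, and Fabp1 is itself a target gene of that receptor.

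A hairpin RNA or a sequencing read can tell the members apart only where their RNAs differ, so their most alike stretch is shown here. Within the coding sequence Fabp4 was 64.2% identical to Fabp7, 62.2% to Fabp5, 56.5% to Fabp1 and 50.8% to Fabp2. The longest run of bases that Fabp4 RNA shared unbroken with another member was 17 bases, with Fabp7, against 12 with Fabp5, 10 with Fabp1 and 10 with Fabp2. That run lies in exon 3, and the lines below give it with its surroundings from the GENCODE mouse release M21 transcripts (GRCm38), where capitals mark bases identical to Fabp4 in the alignment.
Fabp4, chr3:10205278-10205318, minus strand: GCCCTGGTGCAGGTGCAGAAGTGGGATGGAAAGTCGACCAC
Fabp7, chr10:57786289-57786329, plus strand: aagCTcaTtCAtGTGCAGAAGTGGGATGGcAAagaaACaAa
Fabp5, chr3:10015496-10015536, plus strand: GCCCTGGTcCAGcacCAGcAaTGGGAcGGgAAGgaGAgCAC
Fabp1, chr6:71203087-71203127, plus strand: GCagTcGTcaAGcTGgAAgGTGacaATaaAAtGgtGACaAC
Fabp2, chr3:122898725-122898769, plus strand: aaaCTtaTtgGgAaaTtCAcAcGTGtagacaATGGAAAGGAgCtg
Of the 41 bases of Fabp4, 27 were matched in Fabp7, 30 in Fabp5, 24 in Fabp1 and 23 in Fabp2. The sequence of the injected hairpin was not used here, so no site of it can be marked on these lines. No window of 50 bases in the Fabp1, Fabp2, Fabp4 or Fabp7 transcript occurred in a transcript of another gene. In Fabp5 198 of 938 such windows (21.1%) did, all in processed pseudogenes, which are gene copies without introns. Those copies together had few reads, at most 8 for any of them in any library, yet a read from such a window could be credited to either, so the Fabp5 counts carry that uncertainty.

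The members lie on 3 chromosomes of GRCm38, and each coding transcript has 4 exons. Fabp4 (ENSMUSG00000062515) spans chr3:10204088-10208576 on the minus strand and Fabp5 (ENSMUSG00000027533) lies near it at chr3:10012548-10016607 on the plus strand. Fabp2 (ENSMUSG00000023057) lies at chr3:122895072-122899506, Fabp1 (ENSMUSG00000054422) at chr6:71199827-71205023 and Fabp7 (ENSMUSG00000019874) at chr10:57784881-57788450, all on the plus strand. Fabp2 overlaps the gene 4933405D12Rik on the other strand, and with the strand setting of the counting not given in the sources used here, reads of the pair may not have been told apart. No other gene overlaps Fabp1, Fabp4, Fabp5 or Fabp7.

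Total counts ran from 14243344 to 17125440 per library, so that 3 counts stood for 0.175 to 0.211 CPM (counts scaled to the size of the library). All 12 hepatocyte markers were detected in every library. The third young library appears in both deposited tables under a number that the labels do not list, so it is named the unnumbered young library. Its count column held all 20 skeletal muscle markers at a summed 5363 CPM, against 13.3 to 128 CPM in the other 8 libraries. The FPKM column of the same name (fragment counts scaled to exon length and library size) does not match that count column, and reads worked back from it held these markers at 22.4 CPM. The labels do not say whether both columns come from the same liver, so the recovered reads may stand for another library. Results are therefore given with the library of the count column, without it, and with the recovered reads in its place. Replicate 3 of livers labelled old Fabp4 shRNA was second for muscle markers, at 128 CPM with 19 of 20 detected, and was the only count library with all 7 keratinocyte markers, at 33.2 CPM, against 1.77 to 6.28 CPM in the rest.

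Fabp1 was by far the most abundant member, and Fabp2 came second. Over the 8 libraries in which both tables match, Fabp1 ranged from 3320 to 8524 FPKM with a median of 4006, and it took between 94.8% and 98.8% of the summed FPKM of the 5 members. Fabp2 ranged from 63.3 to 215 FPKM with a median of 112. Fabp1 stood above Fabp2, and Fabp2 above Fabp7, in 8 of 8 libraries. The other members lay at a few FPKM. Fabp7 had a median of 2.29 FPKM (1.19 to 4.43), Fabp4 of 1.58 FPKM (0.578 to 2.93) and Fabp5 of 1.24 FPKM (0.598 to 2.31).

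The order of those low members depended on the gene length. The lengths behind the deposited FPKM were those of all annotated exons joined, which for Fabp4 come to 4489 bases, 5.01 times its coding transcript of 896 bases. For Fabp5 the ratio was 3.61, for Fabp7 1.55, and for Fabp1 and Fabp2 1.0. Per kilobase of the coding transcript, which assumes that all reads come from it, the median was 7.89 FPKM for Fabp4, 4.47 FPKM for Fabp5 and 3.56 FPKM for Fabp7. Fabp7 stood above Fabp4 in 7 of 8 libraries by deposited FPKM and in 1 of 8 per coding transcript. Fabp4 stood above Fabp5 in 6 of 8 libraries on either scale, so the ranges of these neighbours overlapped.

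**Figure D1:**
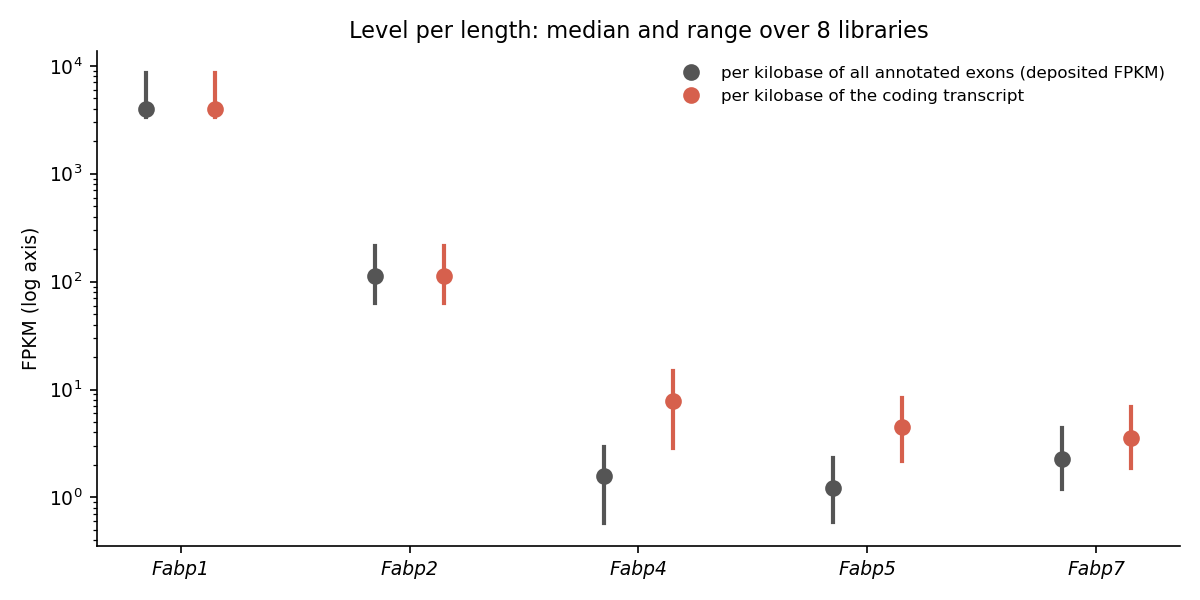
Level of each member per length, in FPKM on a log axis. Points are medians and bars run from the lowest to the highest of 8 libraries, with deposited FPKM in grey and FPKM per kilobase of the coding transcript in red. Fabp1 (median 4006) and Fabp2 (median 112) stand apart, and the other members lie between 0.578 and 14.7 FPKM.

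Fabp1, the liver form, had 2301, 3081 and 4830 CPM in livers labelled old Fabp4 shRNA in replicates 1, 3 and 6, against 2023, 2332 and 1915 CPM in old control liver (replicates 1, 2 and 5) and 2807, 2168 and 3371 CPM in young liver (replicates 1 and 5 and the unnumbered library). Replicate 6 of the hairpin libraries was the highest of all 9, and replicate 1 lay inside the old control range, so those groups overlapped. For old Fabp4 shRNA against old control the log2 fold change was 0.70 ± 0.30 (standard error), a 1.63-fold ratio with a 95% interval of 0.05 to 1.36 on the log2 scale. The edgeR p was 0.0379 before adjustment and 0.728 after it, and an exact two-sided permutation test gave 0.2, with 0.1 the smallest value that 3 against 3 can reach. Without replicate 6 of the hairpin libraries the log2 fold change was 0.37. For old control against young it was -0.41 ± 0.30 (adjusted p = 0.651, edgeR). Old Fabp4 shRNA against young gave 0.29 ± 0.30 (adjusted p = 0.791, edgeR), and -0.047 without replicate 6.

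Fabp2, the intestinal form, had 149, 95.1 and 99.3 CPM in livers labelled old Fabp4 shRNA, 65.2, 214 and 125 CPM in old control liver, and 64.7, 145 and 84.2 CPM in young liver. The spread was widest within old control liver, where replicate 2 was the highest and replicate 1 near the lowest of all libraries, and all 3 groups overlapped. The 12 enterocyte markers summed to 0.0763 to 0.694 CPM in the 9 count libraries, and Cdx1, Cdx2 and Sis were at 0 in every one. Log2 fold changes were -0.24 ± 0.41 for old Fabp4 shRNA against old control, 0.46 ± 0.41 for old control against young and 0.22 ± 0.41 for old Fabp4 shRNA against young, with adjusted edgeR p of 0.945, 0.722 and 0.891. Without old control replicate 2 the first was 0.27 and the second -0.048, and without young replicate 1 or hairpin replicate 1 the third was just under 0.

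Fabp4, the target of the hairpin, had 11.2, 3.81 and 7.58 CPM in livers labelled old Fabp4 shRNA, 7.21, 13.6 and 10.9 CPM in old control liver, and 3.40, 2.67 and 64.8 CPM in young liver. The value of 64.8 CPM belonged to the unnumbered library and rested on 1015 reads, against 35 to 185 reads in the other libraries. Both numbered young livers lay below every old liver. The FPKM column that bears the name of the unnumbered library gave 26 reads and 2.53 CPM, which also lies below every old liver. Hairpin replicate 1 exceeded old control replicates 1 and 5, so a lower Fabp4 was not seen in every library with that label. These RNA counts alone do not establish a knockdown in liver.

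For old control against young the log2 fold change of Fabp4 was -1.17 ± 1.15 (adjusted p = 0.756, edgeR) with all 9 libraries, with a 95% interval of -3.88 to 1.54. Without the unnumbered library it was 1.76 ± 0.46, a 3.40-fold ratio with an interval of 0.77 to 2.76, and the edgeR p was 0.00217 before adjustment and 0.262 after it. With the recovered reads it was 1.84 ± 0.39 (adjusted p = 0.0743, edgeR). The old Fabp4 shRNA against young values turned in the same way, at -1.66 ± 1.17, 1.30 ± 0.45 and 1.38 ± 0.38 in those fits (adjusted edgeR p of 0.700, 0.289 and 0.103). Old Fabp4 shRNA against old control gave -0.49 ± 1.16 with all libraries and -0.47 ± 0.38 without the unnumbered one (adjusted edgeR p of 0.960 and 0.823). With only hairpin replicate 3 left out, the library with muscle and keratinocyte markers, this value was -0.17. With only hairpin replicate 1 left out it was -0.88, so its size depended on single libraries.

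**Figure D2:**
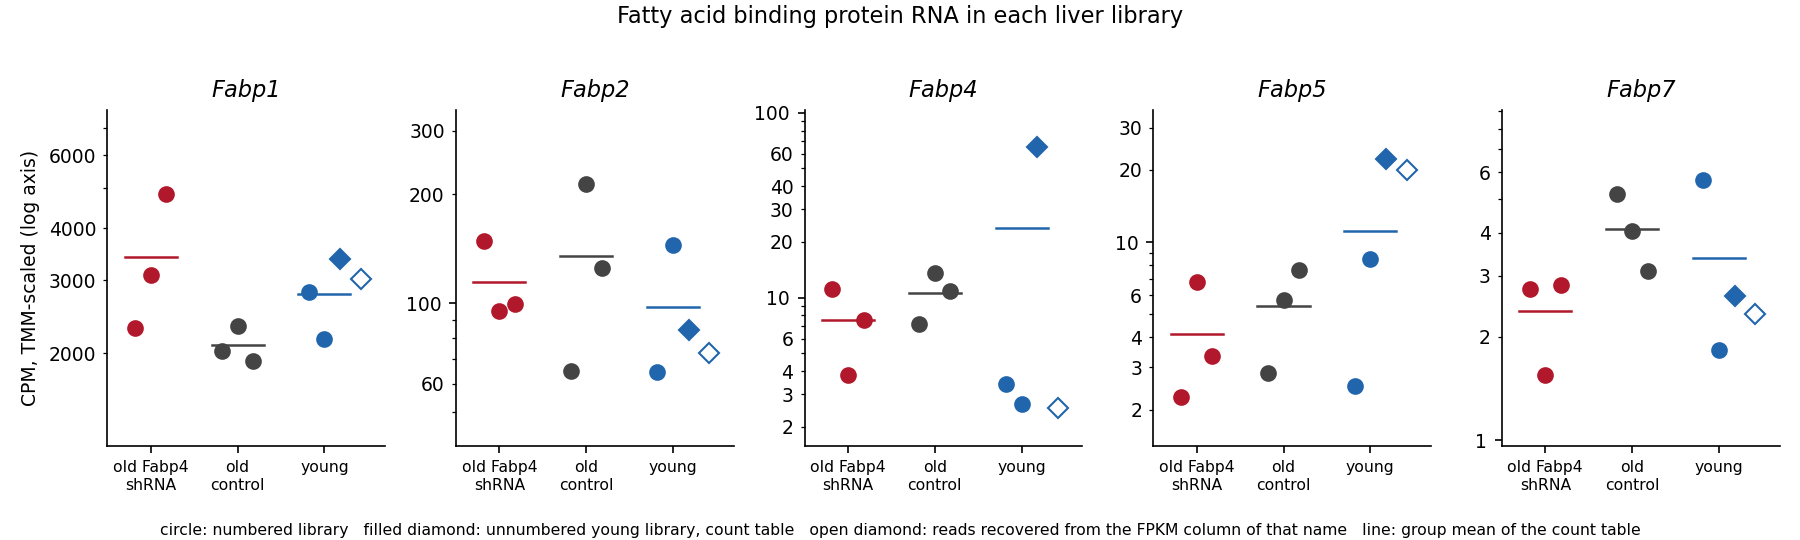
TMM-scaled CPM of each member in every library, on log axes that differ between panels. Columns are old Fabp4 shRNA (red), old control (grey) and young (blue), lines are group means, the filled diamond is the unnumbered young library in the count table and the open diamond stands for reads worked back from the FPKM column of that name. The filled diamond is at 64.8 CPM for Fabp4 and the open one at 2.53 CPM, while for Fabp5 they are at 22.3 and 19.9 CPM.

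Fabp5, the epidermal form, had 2.26, 6.84 and 3.34 CPM in livers labelled old Fabp4 shRNA, 2.85, 5.74 and 7.64 CPM in old control liver, and 2.51, 8.47 and 22.3 CPM in young liver. The highest value was again that of the unnumbered library, 2.63 times the next one, and the 2 numbered young livers, at 2.51 and 8.47 CPM, overlapped with both old groups. The recovered reads gave 19.9 CPM, 2.35 times the highest of the other 8 libraries. Of the hairpin libraries the highest was replicate 3, the one with keratinocyte markers. What part these markers have in the Fabp5 value was not tested.

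Log2 fold changes of Fabp5 were -0.38 ± 0.71 for old Fabp4 shRNA against old control, -1.04 ± 0.71 for old control against young and -1.42 ± 0.71 for old Fabp4 shRNA against young (adjusted edgeR p of 0.953, 0.625 and 0.588). Without hairpin replicate 3 the first was -0.94 and the third -1.98, while without old control replicate 5 the first was -0.04. Without the unnumbered library the values against young were -0.04 ± 0.61 and -0.39 ± 0.60. With the recovered reads they were -0.95 ± 0.68 and -1.30 ± 0.69. Leaving out the unnumbered library thus raised the Fabp5 values against young, as it did those of Fabp4. Fabp5 stayed negative in these fits, where Fabp4 changed sign, but at -0.04 ± 0.61 it was near 0.

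Fabp7, the brain form, had 2.75, 1.54 and 2.82 CPM in livers labelled old Fabp4 shRNA, 5.17, 4.05 and 3.09 CPM in old control liver, and 5.69, 1.83 and 2.62 CPM in young liver. All 3 hairpin libraries lay below all 3 old control livers, on 28 to 54 reads against 49 to 89, while both old groups overlapped with young liver. Such a gap, with the hairpin group lower, occurred in 5.67% of the tested genes. Old Fabp4 shRNA against old control gave -0.79 ± 0.45 (adjusted p = 0.774, edgeR), with an exact permutation p of 0.1, the smallest that 3 against 3 allow. Log2 fold changes against young were 0.28 ± 0.45 for old control and -0.51 ± 0.46 for old Fabp4 shRNA (adjusted edgeR p of 0.858 and 0.755). These became -0.015 without young replicate 5 and 0.087 without young replicate 1. Of the 8 glia and nerve markers 4 had enough reads to be tested. In old Fabp4 shRNA against old control 3 of these were positive, with a median of 0.20 and 0 called. Erbb3 made up most of the sum, and Sox10 was at most 0.221 CPM in the count libraries. Young replicate 1, the highest in Fabp7, was the only count library with all 8 detected, at a summed 103 CPM. Hairpin replicate 3, the lowest in Fabp7, had 162 CPM. The part of such cells in the Fabp7 values was not tested.

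None of the 5 members was called at an adjusted p under 0.05 in any of the 3 comparisons, by edgeR with or without the unnumbered library or by DESeq2, which was run with all libraries. The share of all 14025 tested genes that edgeR called was 0.0357% for old control against young, 0.0% for old Fabp4 shRNA against old control and 0.057% for old Fabp4 shRNA against young. Without the unnumbered library these shares were 0.0208%, 0.0% and 0.0416%; counting recovered reads in its place gave 0.0718%, 0.0% and 0.445%. At an unadjusted p under 0.05 with all libraries, Fabp1 was the only member to pass, in old Fabp4 shRNA against old control, where 6.75% of all genes passed. The shares of all genes were 10.5% for old control against young and 8.93% for old Fabp4 shRNA against young, with 0 members. Without the unnumbered library Fabp4 passed in both comparisons with young liver, where the shares of all genes were 10.4% and 12.5%, and Fabp1 passed in old Fabp4 shRNA against old control, where 7.6% did. Both old groups lay wholly above the 2 numbered young livers for Fabp4, as they did among the 14025 genes for 16.4% in old control and 15.9% in livers labelled old Fabp4 shRNA.

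**Figure D3:**
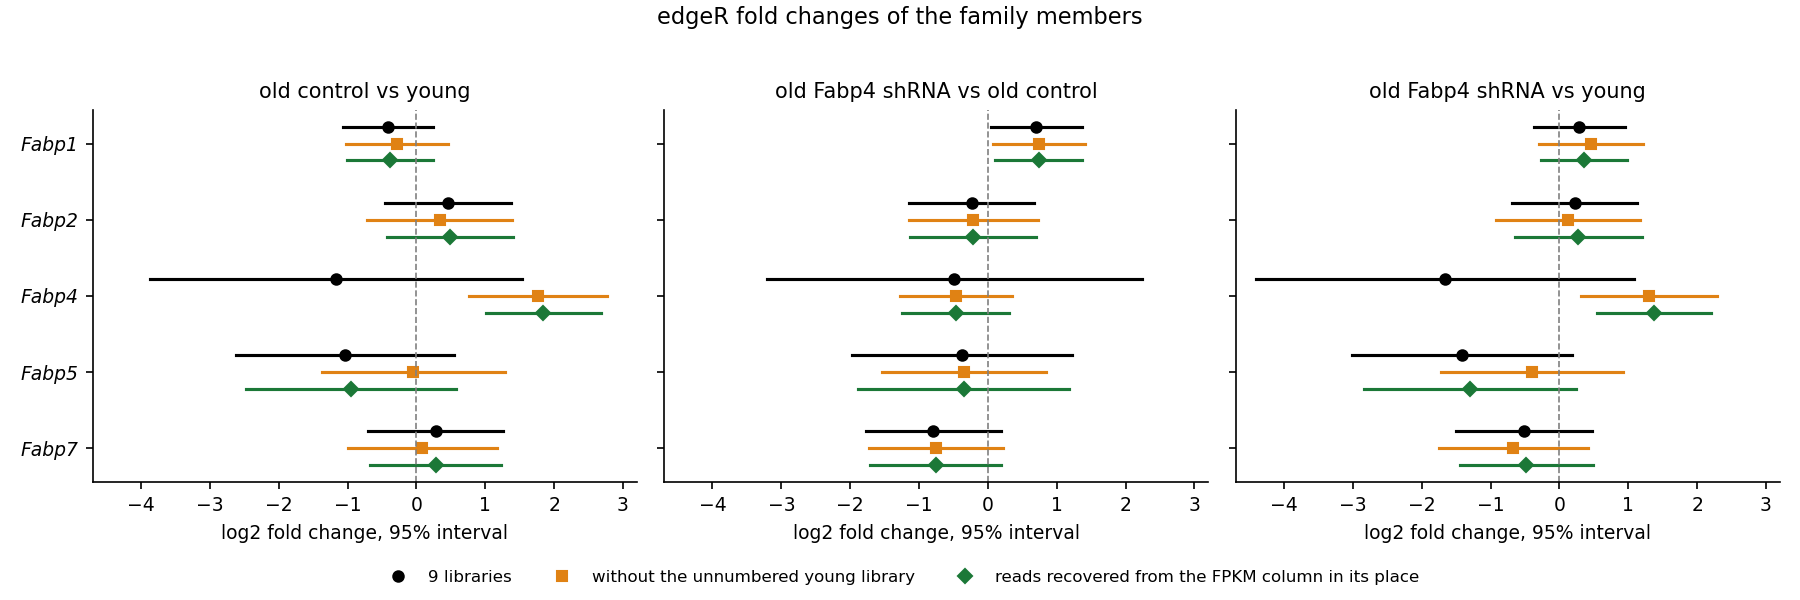
edgeR log2 fold changes of the 5 members with 95% intervals, for the 3 comparisons, with 9 libraries (black), without the unnumbered young library (orange) and with the recovered reads in its place (green). Fabp4 against young liver moves to the other side of 0 (old control, -1.17 to the left and 1.76 to the right). The other members keep their side, though Fabp5 in old control against young lies near 0 without the unnumbered library (-0.04).

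Set side by side, no other member changed sign against young as Fabp4 did when the unnumbered library was left out. Fabp5 moved the same way, from -1.04 to -0.04 against young in old control and from -1.42 to -0.39 in old Fabp4 shRNA. In old control against young, the value of Fabp4 without that library was 1.76. The others stood at -0.28 ± 0.34 for Fabp1, 0.34 ± 0.48 for Fabp2, -0.04 ± 0.61 for Fabp5 and 0.09 ± 0.50 for Fabp7. In old Fabp4 shRNA against young, Fabp4 stood at 1.30, against 0.46 ± 0.35 for Fabp1, 0.13 ± 0.47 for Fabp2, -0.39 ± 0.60 for Fabp5 and -0.67 ± 0.50 for Fabp7. These comparisons share the young libraries and are not independent, and the difference between members was not tested. In old control against young the 95% intervals were -1.02 to 0.46 for Fabp1 and -0.72 to 1.40 for Fabp2. For Fabp5 and Fabp7 they were -1.37 to 1.28 and -0.99 to 1.17. In old Fabp4 shRNA against young they were -0.29 to 1.21 for Fabp1 and -0.93 to 1.18 for Fabp2. There Fabp5 and Fabp7 had -1.71 to 0.93 and -1.75 to 0.41. Shifts within these intervals, in either direction, were therefore not excluded by the fits.

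In the unnumbered library the members parted into those above all other libraries and those within their range. Fabp4 was 4.76 times and Fabp5 2.63 times the highest of the other 8, while Fabp1 (3371 CPM), Fabp2 (84.2 CPM) and Fabp7 (2.62 CPM) lay within it. Fabp3, the form of heart and skeletal muscle and not a member of the set, had 2787 reads there and at most 9 in any other library, a ratio of 358 in CPM to the highest of them. The fatty acid handling gene Cav1 (caveolin) was at 22.1 CPM, 6.57 times the next library, and Rbp7, a retinol-binding relative, had 30 reads against at most 2. Of the 13 fat cell markers 11 were detected, while Adipoq had 1 read and Plin1 and Lep 0. Endothelial markers summed to 204 CPM and fat cell markers to 235 CPM, inside the ranges of the other libraries. Both sums were above those of the numbered young livers, 117 and 104 CPM for endothelial and 78.2 and 132 CPM for fat cell markers. The FPKM column gave 87.7 and 63.5 CPM for these lists. Of all tested genes 9.77% were highest in that count column, 7.51% in the FPKM column, and 1.69% in both, as Fabp5 was. How far muscle reads account for the Fabp4 and Fabp5 values was not tested.

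**Figure D4:**
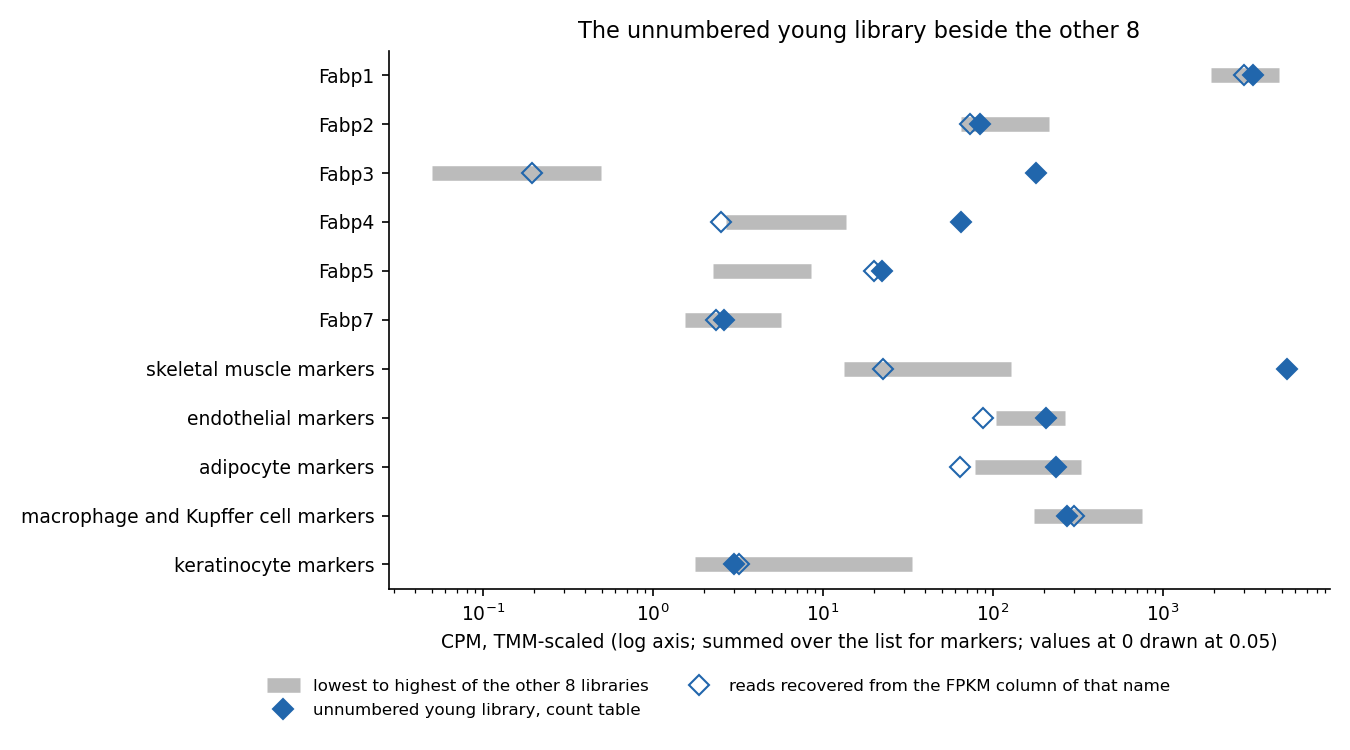
The unnumbered young library, from the count table (filled) and from the FPKM column of that name (open), beside the range of the other 8 libraries (grey bars), in CPM on a log axis, summed over each list for markers. Muscle markers (5363 CPM), Fabp3 (178 CPM) and Fabp4 (64.8 CPM) stand above the bars in the count table alone, and Fabp5 in both, while Fabp4 from the FPKM column (2.53 CPM) lies below its bar.

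Markers of the other cells that make Fabp4 were counted beside it. Without the unnumbered library, 15 of 15 endothelial markers had positive log2 fold changes in old control against young, with a median of 0.86, and 14 of 16 macrophage markers, with a median of 0.91. Those for old Fabp4 shRNA against young were 15 of 15 with a median of 0.74 and 8 of 16 with a median of 0.02. Only 8 of the 13 fat cell markers had enough reads to be tested. Plin1 and Lep were at 0 in every count library but old control replicate 2. Of the 8 tested, 5 and 6 were positive in these comparisons, with medians of 1.13 and 1.16. The median of all tested genes was 0.02 and 0.04. None of these markers was called. In whole liver, fewer cells of a type and less RNA per cell cannot be told apart.

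The summed level of endothelial markers was 128 to 267 CPM in livers labelled old Fabp4 shRNA, 132 to 246 CPM in old control liver, and 117 and 104 CPM in the numbered young livers. Macrophage markers summed to 174 to 274 CPM, 335 to 756 CPM, and 243 and 372 CPM in the same groups. In old Fabp4 shRNA against old control 14 of 15 tested macrophage markers were negative with all libraries, with a median of -1.03, against -0.01 for all tested genes. Fat cell markers summed to 149 to 296 CPM in livers labelled old Fabp4 shRNA, 131 to 331 CPM in old control liver, and 78.2 and 132 CPM in the numbered young livers, with most of the sum in Cd36, Plin4 and Cidec. Old control replicate 2, the highest of these 8 in Fabp4, was also the highest in 5 of the 13 fat cell markers, and hairpin replicate 1 in 4 others. Those 5 were Cidec (85.6 CPM), Cidea (19.9), Adipoq (0.957), Plin1 (0.736) and Lep (0.515), while old control replicate 2 was among the lowest in Lipe (11.0 CPM) and Adrb3 (2.87). In old control replicate 2 Adipoq and Plin1 rested on 13 and 10 reads. The share of all genes that were highest in that library was not computed. The part of these cell types in the Fabp4 values was not tested.

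Among the relatives of the family in the table, several lay near or at 0. Fabp12 had at most 10 reads in a library, and Fabp6 (the bile acid carrier of the ileum), Rbp2 and Crabp2 at most 2. Fabp9, Pmp2 and Crabp1 had 0 reads in all 9 libraries, which allows up to 0.175 to 0.211 CPM.

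No pair of members passed the test for a shared pattern across libraries. Over the 8 libraries other than the unnumbered one, Pearson's r of log2 CPM for the 10 pairs ran from -0.60 (Fabp5 with Fabp7, Spearman's rho -0.45) to 0.47 (Fabp2 with Fabp4, rho 0.62). Exact permutation p for these pairs were 0.122 and 0.240 for r and 0.267 and 0.115 for rho, and all 10 pairs had an adjusted p of 0.728 for r, with 0.831 for these rho. With the 2 libraries farthest from the median of the first-named gene left out, r was -0.68 and -0.01, so the second relation rests on those libraries. Fabp4 and Fabp5 had r = -0.18 over these 8 libraries (exact permutation p = 0.668, rho -0.26) and 0.52 once the unnumbered library was added. Differences between the groups are part of any such r.

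For each member the 3 genes with the most alike pattern over the same 8 libraries were looked up among 12562 genes, as a description. They were Polr1d (r = 0.97), Mlycd (0.93) and Mrps34 (0.93) for Fabp1, and Rexo2 (0.96), Trappc6b (0.95) and Fbxl5 (0.94) for Fabp2. Mlycd encodes malonyl-CoA decarboxylase, an enzyme of fatty acid metabolism. Zfp709 (0.97), Gm37163 (0.95) and Gm47283 (0.94) were most like Fabp4, and with the unnumbered library added their r was 0.38, 0.43 and -0.24. Fabp5 was most like Cep290 (0.94), Sox5 (0.92) and Cav1 (0.90), and with the ninth library the r with Cav1 was 0.92. Pde9a (0.97), Apof (0.93) and CT010445.1 (0.91) were most like Fabp7, and Apof encodes an apolipoprotein made by liver.

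The genes around the family in fatty acid handling gave few differences. Of 16 tested genes of fatty acid uptake, activation and carriage, 9 were positive in old Fabp4 shRNA against old control, 7 in old control against young and 7 in old Fabp4 shRNA against young, with medians of 0.03, -0.08 and -0.13 and 0 called. Without the unnumbered library 10, 10 and 9 were positive, with medians of 0.06, 0.07 and 0.06, so both medians against young changed sign. The most abundant were Scp2, a sterol and lipid carrier (-0.05 ± 0.28 in old Fabp4 shRNA against old control), Slc27a2, a fatty acid transporter (-0.28 ± 0.27), and Acsl1, which activates fatty acids with coenzyme A (0.40 ± 0.30). Of 17 nuclear receptors and regulators of Fabp1, 10, 8 and 9 were positive in the same order of comparisons, with medians of 0.09, -0.06 and 0.21 and 0 called. Hnf4a stood at 0.12 ± 0.34, Cebpa at 0.27 ± 0.25 and Rxra, the partner of PPARalpha on DNA, at 0.75 ± 0.22 (adjusted p = 0.728, edgeR) in old Fabp4 shRNA against old control.

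Fabp1 is a PPARalpha target, and the other targets of that receptor were counted beside it. Of 21 tested targets, 19 were positive in old Fabp4 shRNA against old control with a median of 0.22, 15 in old control against young with a median of 0.10, and 21 in old Fabp4 shRNA against young with a median of 0.45. None was called, and 4 of the 21 had an unadjusted p under 0.05 in the first of these, where 6.75% of all genes did. With the unnumbered young library left out 19, 16 and 18 were positive in the same order, with medians of 0.25, 0.21 and 0.50. Those with an unadjusted p under 0.05 were then 4, 4 and 9, beside 4, 0 and 2 with all libraries, and none was called. Of all tested genes 7.6%, 10.4% and 12.5% then had such a p, beside 6.75%, 10.5% and 8.93% with all libraries. Cyp4a14, a fatty acid hydroxylase, stood at 0.86 ± 0.50 in old Fabp4 shRNA against old control.

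The Fabp1 promoter was searched for the repeat that PPARalpha and its partner bind, the letters AGGTCA and AGGNCA in either order with 1 base between them, on both strands. RefSeq promoters (GRCm38.p6) were at hand for 3 members. The Fabp1 promoter holds 1 match, in capitals below, which begins 67 bases before the RefSeq start and lies at the start of the gene as GENCODE draws it.
Fabp1 promoter, chr6:71199792-71199839, plus strand: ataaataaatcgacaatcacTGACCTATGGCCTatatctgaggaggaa
These letters were not in the windows of Fabp2 and Fabp7, and 56 of 32851 promoters (0.170%) held a match in the 250 bases searched. A match describes the letters only.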

How the data were processed

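The members, gene lists and tests were chosen with earlier results of these data known. Per the submitters' processing notes, HISAT2 was used with the genome GRCm38.p6. The read counter, its strand setting and the read length are not given in the labels or notes used here. The labels name liver as the tissue, while their extraction text names NRVMs. The deposited count table holds whole reads per gene. The deposited FPKM table holds values that the authors scaled to gene length and library size, and for 95.4% of genes the implied length was that of the joined exons in GENCODE M21, within 1%.

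The labels list young mice 1, 4 and 5, and the tables hold a column for a mouse 2, which was placed in the young group with no number. Over 10483 genes, the ratio of FPKM to count was constant for 100% of genes in 8 columns and for 0.229% in that one (tolerance 0.001). The count and FPKM columns of that name therefore hold different reads, and the labels do not say whether both come from the same liver. From the FPKM column 11805823 reads were recovered, against 16187004 in the count column. Of 12876 values under 200 reads, 100% came out whole (tolerance 0.05), and 226 genes could not be used.

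Genes passing filterByExpr by group (14025) entered edgeR 4.0.16 (R 4.3.3) with TMM scaling (factors 0.825 to 1.15), a robust quasi-likelihood fit with 1 mean per group over 9 libraries (6 residual degrees of freedom, biological coefficient of variation 0.320) and Benjamini-Hochberg adjustment over all tested genes. Tests are two-sided. CPM are TMM-scaled, and limits from 3 counts cover counting error only. The fit was first tested on simulated data. Alternatives were DESeq2 1.42.0, limma-trend 3.58.1 on log2(FPKM + 0.1), other scaling, no filter, 6 libraries, the recovered reads, the animal number as a block, and each library left out. Named genes were the members, their relatives, called genes and the 3 most abundant of each gene list, and the 3 genes most like each member among genes with a mean of at least 1 CPM. Single markers named beside a result were chosen after their values were seen. Some genes that the rule for named genes gives are not reported here.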

Additional observations from a re-analysis of the deposited data

How the results depend on the processing

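Of 240 alternative values for the 15 results on members (5 genes in 3 comparisons), 221 kept their sign and their side of the threshold and 19 changed sign. None was called, and the lowest adjusted p was 0.0507 (Fabp4, old control against young, with the replicate block). Fabp4 changed sign in old control against young and in old Fabp4 shRNA against young with the recovered reads (1.84 and 1.38), with limma-trend on FPKM (1.66 and 1.14) and with the replicate block (1.54 and 1.96), each of which takes or weighs the unnumbered library differently. With libraries left out in turn it ran from -1.70 to 1.76 and from -2.18 to 1.30, and the positive values are those without the unnumbered library. The replicate numbers are shared by 1 or 2 pairs per comparison, whose deviations correlated at -0.05 to 0.12, so the samples share only a number. The block gave 0.11 for Fabp1 in old Fabp4 shRNA against old control (0.70 without it), and there also 1.25 for Fabp2 and 0.42 for Fabp4. It gave -0.10 for Fabp2 in old control against young and -0.22 for Fabp1 in old Fabp4 shRNA against young. A number held by 1 library only gives that library a level of its own in this fit. In the hairpin group only replicate 1 shares its number, so the block compares that group through replicate 1 alone. The adjusted p and counts of called genes with the block carry the same limit. Other sign changes came with single libraries left out. In old control against young they were Fabp2 without old control replicate 2 (-0.048; range -0.048 to 0.86) and Fabp7 without young replicate 5 (-0.015; range -0.015 to 0.88). Fabp2 in old Fabp4 shRNA against old control ran from -0.57 to 0.27. In old Fabp4 shRNA against young, Fabp1 ran from -0.047 (without hairpin replicate 6) to 0.51, Fabp2 from -0.011 (without hairpin replicate 1) to 0.62, with -0.0043 without young replicate 1, and Fabp7 from -0.80 to 0.087. Counts of called genes, 0 for old Fabp4 shRNA against old control, 5 for old control against young and 8 for old Fabp4 shRNA against young, were 0, 10 and 62 with the recovered reads, 8, 137 and 94 with no filter, 4, 162 and 104 with DESeq2, 73, 158 and 23 with the replicate block, 0, 15 and 0 with only the 6 libraries compared, and 1, 21 and 77 with limma-trend. With libraries left out they ran from 0 to 1, from 1 to 10 and from 0 to 37. For the members counted here depth was no limit for Fabp1 and Fabp2, while Fabp7 rested on 24 to 89 reads per library.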

Other observations

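Other lists were counted beside the family, with all libraries and no list tested as a whole. Of 20 circadian clock genes 14 had a positive log2 fold change in old Fabp4 shRNA against old control (median 0.26), 7 in old control against young (median -0.56) and 9 in old Fabp4 shRNA against young (median -0.07). Noct, a phosphatase with a daily rhythm, was the only gene of any list to be called. It had 157, 240 and 84.3 CPM in livers labelled old Fabp4 shRNA, 228, 246 and 143 CPM in old control liver, and 20.3, 16.1 and 31.2 CPM in young liver, so that both old groups lay above young liver. Its log2 fold changes were 3.19 ± 0.40 for old control against young (adjusted p = 0.0121, edgeR) and 2.83 ± 0.40 for old Fabp4 shRNA against young (adjusted p = 0.0287, edgeR). Tef and Nr1d2, the other abundant genes of that list, stood at 1.05 ± 0.75 and 0.82 ± 0.29 in old Fabp4 shRNA against old control.

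The 12 hepatocyte markers were positive in 1, 3 and 1 cases in these comparisons, with medians of -0.34, -0.25 and -0.64, so that Fabp1 and most hepatocyte markers had opposite signs in old Fabp4 shRNA against old control. All 8 red blood cell markers were negative in both comparisons with young liver, with medians of -1.76 for old control and -1.73 for old Fabp4 shRNA.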
